A study of Mus musculus with 6 samples.

Results

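Interferon regulators and interferon-stimulated genes were followed here as 46 named mouse genes, out of 22020 protein-coding genes in the GENCODE M21 annotation of mm10. They were listed by name, and the rule that selects them uses no chromatin value, although the list was drawn up with earlier results of these data known: 9 transcription factors of the IRF and STAT families, 4 interferon receptor chains, 6 nucleic acid sensors and adaptors, 5 OAS family genes, 3 IFIT genes, 4 IFITM genes, 8 guanylate-binding and immunity-related GTPases of the GBP and IRG families, 2 MX GTPases and 5 other interferon-stimulated genes. A peak was assigned to a gene when it overlapped the gene body or the 20 kb on either side by at least 1 base, and a peak near several of the genes was counted only a single time in totals.

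ATAC-seq, a method in which a transposase tags open DNA with sequencing adapters, was used to profile chromatin in monocytic myeloid-derived suppressor cells (M-MDSCs). The cells were wild type and had been sorted as CD11b+Ly-6ChiLy-6G- from tumors that grew after Hepa 1-6 hepatoma cells were implanted into the liver of young adult female C57BL/6 J mice. Mice with a high share of MDSCs in blood were kept and then received daily intraperitoneal injections of vehicle, MS-275 (entinostat) or CXD101, the inhibitors at the same dose; both block the histone deacetylases HDAC1-3. Each of the 3 groups had 2 libraries, which the study calls biological replicates.

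The authors pooled the 2 libraries of a group and compared each pair of groups in both directions, which gave 6 lists of differential peaks and 11800 peaks in all. MS-275 over vehicle held 8480 peaks, vehicle over MS-275 691, CXD101 over vehicle 284, vehicle over CXD101 693, MS-275 over CXD101 1650 and CXD101 over MS-275 only 2. The study's own text gives larger peak numbers for each inhibitor against vehicle than these deposited lists hold, for a reason not given in the sources used here, so all counts below, zeros included, apply to the deposited lists. A site enters a list only where the pooled signal of the first group exceeded the level expected from the second, so the lists hold differences and not levels, and a gene without a peak may be open or closed in every group. Since each value comes from 1 pool per group, no spread between the libraries could be had, the p-values compare pools and not mice, and no test across genes was run. The pooled MS-275 libraries were 1.14 times as deep as the vehicle libraries and 1.01 times as deep as the CXD101 libraries. The lists also cannot check the identity of the sorted cells, for the same reason.

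Type I interferons bind the receptor chains IFNAR1 and IFNAR2, and interferon-gamma binds IFNGR1 and IFNGR2. The receptors activate Janus kinases and STAT proteins, and a complex that holds STAT2 and IRF9 then binds interferon-stimulated response elements, while the interferon-gamma response also uses gamma-activated sites. The genes that lie downstream encode proteins that restrict viruses and intracellular microbes, sense nucleic acids and present antigen, and in myeloid cells the IRF proteins are also known to steer differentiation, IRF8 towards monocytes and dendritic cells.

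Sites that were more accessible with MS-275 than with vehicle lay near 23 of the 46 genes, or 50%, against 18.6% of all protein-coding genes. The 46 genes had no site that was less accessible with MS-275 than with vehicle. Sites are counted by summit here and below, and the 44 distinct summits lay in 35 separate intervals. The 44 corresponded to 18.4 peaks per Mb over the 2.39 Mb covered by the gene windows. Counted in the same way, the 1429 Mb of all protein-coding windows held 4.51 peaks per Mb. The windows themselves were of similar size, with a median of 55.3 kb for the 46 genes and 57.3 kb for all protein-coding genes. Many of the genes sit in clusters, and 9 of the 44 sites were counted for 2 or more of them. When a site was given only to the gene with the nearest start site, 15 of the 46 genes (32.6%) kept one, against 12.9% of protein-coding genes; this reading was added after the values had been seen.

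In the direct comparison of the inhibitors, 10 of the 46 genes (21.7%) had a site with more signal in MS-275 than in CXD101, against 6.61% of protein-coding genes, and none had a site with more signal in CXD101, against 0.0136%. CXD101 over vehicle, with 284 peaks a far shorter list than MS-275 over vehicle, gave no site near any of the 46 genes, where the background was 0.963% of protein-coding genes. The number of genes and the length of the list limit what this shows, since 0 of 46 allows a share of up to 6.52% (counting error only). Vehicle over MS-275 likewise gave 0 of 46, against 2.89%. Vehicle over CXD101 gave 3 genes (6.52%), against 3.61%, which is near the background for a set of 46.

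**Figure D1:**
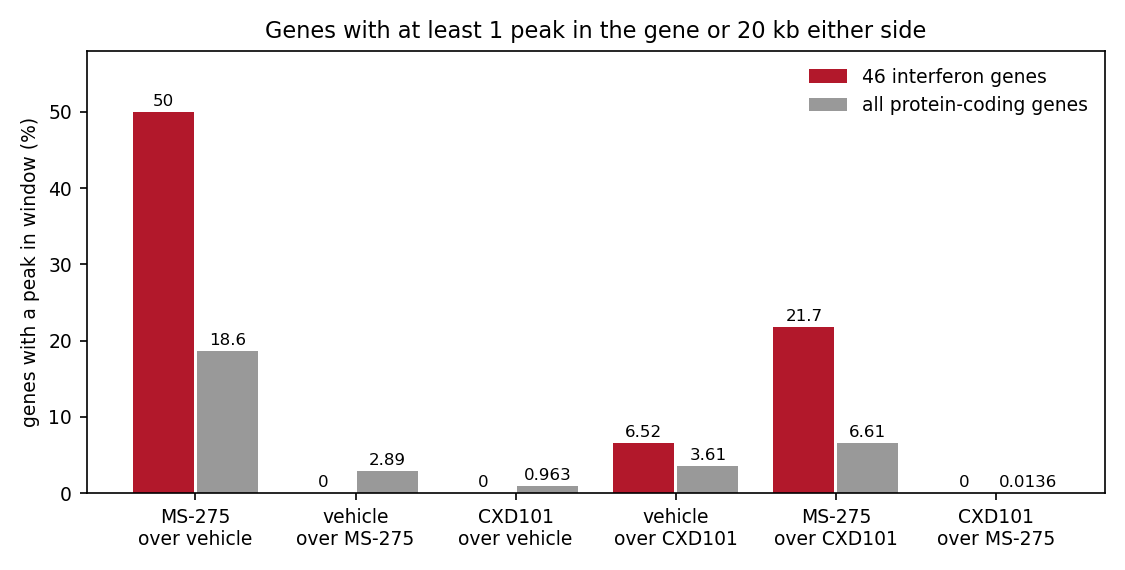
Share of genes, in percent, with at least 1 peak in the gene or the 20 kb on either side, for each of the 6 lists of differential peaks; red bars are the 46 interferon genes and gray bars all 22020 protein-coding genes. The red bar is highest for MS-275 over vehicle at 50%, beside a gray bar of 18.6%, and is at 0 for vehicle over MS-275, CXD101 over vehicle and CXD101 over MS-275.

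The size of the difference at the interferon genes was near that of the whole list. Fold enrichment, the ratio of the first group's pooled signal at the summit to the local level that the peak caller expected from the second group, after scaling to the same depth and adding a pseudocount of 1, had a median of 3.07 over the 44 sites (range 1.72 to 6.92) and 2.88 over all peaks of MS-275 over vehicle. The medians were 2.21 over 13 sites and 2.39 over all peaks for MS-275 over CXD101, and 2.63 over 4 sites and 2.72 over all peaks for vehicle over CXD101. In the text below, MS-275 values are tags, the aligned reads that MS-275 libraries piled up at the summit, scaled to the depth of the vehicle libraries and given with their exact 95% Poisson interval, which covers counting error only. The vehicle or CXD101 value beside them is that expected level, the largest of several averages and so an upper estimate of the group's own signal. At the Mx2, Gbp2 and Oas1a sites it was 5.84 tags, the lowest vehicle level of the list. Distances from a gene's start are to the nearest of its annotated transcript starts, which can lie inside the gene.

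Genes of other cell types were found in the same list. Of 48 marker genes, 18 (37.5%, against 18.6% of protein-coding genes) had an MS-275 over vehicle peak in the same window, among them 6 of 7 neutrophil markers (S100a8, S100a9, Ly6g, Mpo, Elane and Cxcr2, but not Camp), with fold enrichments at their strongest peaks of 2.14 (Cxcr2) to 3.33 (S100a8). The genes of the sorting gate and of monocytes had such peaks at 4 of 6 (Itgam, Ly6c1, Ly6c2 and Cx3cr1), T cells at 4 of 7, macrophages at 2 of 7, and NK cells and dendritic cells at 1 of 5 each, while B cells had 0 of 5 and hepatocytes 0 of 6. Of the T cell genes, Cd3e, Cd3d and Cd3g were counted through a single shared peak at 1.84. Vehicle over MS-275 and vehicle over CXD101, which share the vehicle libraries, each had peaks near 5 of the 48 markers (10.4%, against 2.89% and 3.61%): Itgam and Cx3cr1 of the gate and monocyte genes, the macrophage gene Mertk, the dendritic cell gene Itgax and the T cell gene Cd3g. In each list Itgam and Itgax were counted through a single shared peak (2.14 in vehicle over MS-275 and 2.22 in vehicle over CXD101). The Mertk peak and this shared peak lay in the 5 kb upstream of Mertk and of Itgax, and no neutrophil marker had a peak in these lists. In MS-275 over CXD101, 4 of the 48 markers had a peak (8.33%, against 6.61%), and in CXD101 over vehicle none. Summed levels per group could not be computed from lists of differences, and the part of cell composition in the interferon result was not tested. Fewer cells of a type and less open chromatin per cell cannot be told apart in bulk libraries.

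**Figure D2:**
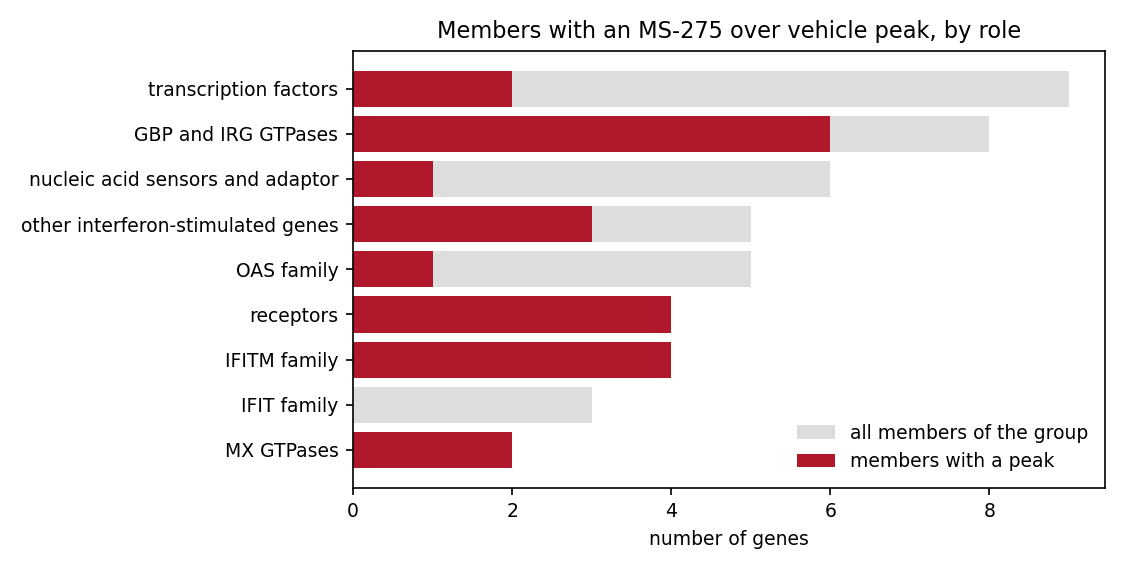
Number of the 46 genes in each role (gray) and number with at least 1 MS-275 over vehicle peak in the gene or 20 kb either side (red). All 4 receptor chains, all 4 IFITM genes and both MX genes had a peak, as did none of the 3 IFIT genes, 1 of 5 OAS genes and 2 of 9 transcription factors. The share over all protein-coding genes was 18.6%, and with so few genes per role, differences between roles were not tested. Neighbors can share a site: Ifitm2 was counted only through the Ifitm1 start site and Ifitm6 only through a site shared with Ifitm3.

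Among the transcription factors, sites gained with MS-275 lay near 2 of 9, Irf1 and Irf2. Irf1, an activator induced by interferon-gamma, had a site at 45.5 tags (34.0 to 59.6) with MS-275 over a vehicle level of 20, a fold enrichment of 2.21. This site was 20.9 kb downstream of the Irf1 start, within an intron of Gm12216. Irf2, which binds the same elements and is known to oppose Irf1, had a site in its own intron. That site lay 24.8 kb downstream of the nearest annotated Irf2 start, with 38.5 tags (28.0 to 51.6) over 10.0 and a fold enrichment of 3.59. In both cases the whole interval for MS-275 lay above the vehicle level, as the choice of sites by the peak caller requires. Irf3, Irf5 and Irf7, which drive interferon production after pathogen sensing, the lymphoid and myeloid factor Irf4, and Stat2 had no peak in any of the 6 lists.

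The only sites of the 46 genes with a loss of signal lay in vehicle over CXD101, where the share of genes was near the background (6.52% against 3.61%). Its 4 summits lay in 3 intervals, and 3 of the 4 summits were assigned to Irf8 or Irf9. About 20 kb upstream of Irf8, in an intron of Gm20388, a pair of summits stood in a single interval of 511 bases. Both summits lay just outside the 20 kb window, which only the edge of the interval reached. The nearer had 44 vehicle tags (32.0 to 59.1) over a CXD101 level of 10.0, a fold enrichment of 4.08, at a −log10 p of 15.3. The farther had 32 vehicle tags (21.9 to 45.2) over 11.4, a fold enrichment of 2.65. Irf9, the DNA-binding partner of STAT2, was counted through a site with 153 vehicle tags (130 to 179) over 101, a fold enrichment of 1.51, the lowest of any site near the 46 genes. That site lay 12.3 kb upstream of Irf9 but only 207 bases upstream of a start of Psme2, a proteasome activator subunit. Neither Irf8 nor Irf9 had a peak in the other 5 lists. The Irf8 site is shown because it was the strongest loss at any of the genes (mm10, chr8:120716243-120716430, plus strand), and it held none of the motifs searched for.
Irf8, 20 kb upstream: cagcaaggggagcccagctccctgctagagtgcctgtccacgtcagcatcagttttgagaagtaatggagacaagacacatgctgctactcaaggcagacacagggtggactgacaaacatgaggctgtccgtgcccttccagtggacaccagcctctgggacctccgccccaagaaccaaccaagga

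Every one of the 4 receptor chains had sites gained with MS-275, 10 in all. Ifnar2, Ifnar1 and Ifngr2 lie within the same stretch of chromosome 16, with Il10rb, a chain shared by the IL-10 and lambda interferon receptors, between Ifnar2 and Ifnar1, whereas Ifngr1 is on chromosome 10. Ifngr2, the signal-transducing chain of the interferon-gamma receptor, was the receptor gene with a site in the 5 kb before its start: 1219 bases upstream, MS-275 gave 69.1 tags (54.7 to 86.1) over 27.8, a fold enrichment of 2.43, at a −log10 p of 10.9. A second Ifngr2 site, 8.58 kb upstream, had a fold enrichment of 2.82. Ifngr1, the ligand-binding chain, had its strongest site 7.83 kb upstream, with 51.6 tags (39.3 to 66.5) over 12.2 and a fold enrichment of 3.98. Another site lay 12.6 kb upstream (3.84). A further site lay past the end of the gene, 7.38 kb downstream of its nearest annotated start (1.86).

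For the type I receptor, the strongest site assigned to Ifnar2 was 139 bases upstream of a start of Il10rb, with 96.2 tags (79.0 to 116) over 36.2 and a fold enrichment of 2.61. The site 5.72 kb upstream of Ifnar2 had the highest vehicle level of all 44, 93.6, and with 162 MS-275 tags (139 to 187) the lowest fold enrichment, 1.72. A pair of summits near 20 kb upstream gave 1.99 and 2.06. Ifnar1 had a site past the end of the gene, 19.0 kb downstream of the nearest of its annotated starts. It had 62.1 tags (48.5 to 78.3) over 19.8 and a fold enrichment of 3.04. There, 85.1% of the bases within 100 bases of the summit were repeat-masked. Ifnar2 was also the gene with both gained sites in MS-275 over vehicle and a site lost in vehicle over CXD101. This intronic site lay 10.3 kb downstream of the nearest annotated Ifnar2 start. It had 77 vehicle tags (60.8 to 96.2) over a CXD101 level of 29.0, a fold enrichment of 2.60. The receptor chains thus had sites on both sides of their starts, most of them kilobases away.

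Among the nucleic acid sensors, the gained sites belonged to Zbp1 and to no other of the 6. Zbp1, a sensor of Z-form nucleic acid, had 6 of them. The strongest, 11.0 kb upstream within an intron of Pmepa1, had 97.9 tags (80.6 to 118) over 23.4, a fold enrichment of 4.05, at a −log10 p of 29.8. The site nearest to the gene, 5.23 kb upstream of its start with an edge inside the 5 kb used as the promoter, had 51.6 tags (39.3 to 66.5) over 16 and a fold enrichment of 3.09. A group of 3 sites between 31.3 and 32.1 kb downstream of the start gave 3.95, 3.12 and 2.81. Ifih1 and Dhx58, which sense viral RNA, the mitochondrial adaptor Mavs, the RNA-activated kinase Eif2ak2 and the RNA-editing enzyme Adar had no peak in any list.

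The IFITM genes encode small membrane proteins that hinder the entry of enveloped viruses, and all 4 had sites gained with MS-275. The site at the start of Ifitm1 (mm10, chr7:140968057-140968261) had its summit 110 bases downstream of the start, in an untranslated part of an exon. It held 73.4 tags (58.6 to 90.9) over 22.0, a fold enrichment of 3.24, at a −log10 p of 17.6. This was also the site counted for Ifitm2, 12.2 kb upstream of that gene. Between Ifitm1 and Ifitm3 a run of 1677 bases (mm10, chr7:140989024-140990700) held 6 summits with fold enrichments of 2.49 to 4.31, and a further site directly beside it had 104 tags (86.2 to 125) over 37.8 and a fold enrichment of 2.71. The strongest of these by −log10 p, 23.7, had 102 tags (84.6 to 123) over 31.0. Ifitm6 shared a site with Ifitm3 whose fold enrichment was 2.11 and whose nearest start was that of Gm17387. No summit lay inside Ifitm2, Ifitm3 or Ifitm6 or in the 5 kb before their starts.

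A pair of these intergenic IFITM sites is shown because each held a match to an interferon-related motif, in capitals. The first (mm10, chr7:140990508-140990700, plus strand) holds GAAANNGAA, the core repeat of interferon-stimulated response elements, and the second (mm10, chr7:140990942-140991142, plus strand) holds TTCNNNGAA, the form bound by STAT dimers.
Ifitm1 and Ifitm3, strongest summit of the run: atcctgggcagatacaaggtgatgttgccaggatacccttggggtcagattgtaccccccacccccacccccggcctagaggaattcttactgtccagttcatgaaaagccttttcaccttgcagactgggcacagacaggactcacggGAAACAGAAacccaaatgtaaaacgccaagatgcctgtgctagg
Ifitm3, neighboring site: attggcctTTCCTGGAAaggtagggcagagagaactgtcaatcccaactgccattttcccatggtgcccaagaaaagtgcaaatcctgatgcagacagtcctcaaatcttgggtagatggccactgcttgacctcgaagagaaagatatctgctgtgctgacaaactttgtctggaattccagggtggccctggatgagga

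The GBP and IRG families, interferon-induced GTPases that attack the vacuoles of intracellular pathogens, had 6 of 8 genes with gained sites, and 3 of them, Gbp4, Gbp5 and Irgm1, had a summit within 1 kb of a start. Gbp4 had a site 216 bases upstream of its start, with 75.2 tags (60.1 to 92.9) over 22.0, a fold enrichment of 3.31, at a −log10 p of 18.7. Its other site, 6.16 kb upstream, gave 2.49 and was 75.1% repeat-masked. Gbp5, which is known to promote inflammasome assembly, had a site 90 bases upstream of its start with 105 tags (87.0 to 125) over 37.8, a fold enrichment of 2.73. Its other site, 3168 bases upstream, had fewer tags, 76.9 (61.7 to 94.8), but a lower vehicle level of 19.8 and so a higher fold enrichment, 3.75. At each of these 4 sites the interval for MS-275 lay wholly above the vehicle level, which the choice of sites by the peak caller likewise requires.

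Irgm1, a regulator of the other IRG proteins, had a weak site over its start, 55 bases into the gene, with 49.8 tags (37.7 to 64.6) over 27.0 and a fold enrichment of 1.82. Irgm2 had a site 1012 bases upstream of one of its starts, inside the annotated gene, with 35.8 tags (25.7 to 48.6) over 8.80 and a fold enrichment of 3.76. The neighboring Igtp, whose annotated span lies within that of Irgm2 but for its first bases, was counted through the same site. Gbp2 had a single site 19.8 kb downstream of its start, with 22.7 tags (14.9 to 33.3) over a vehicle level of 5.84, the lowest vehicle level of the whole list, and a fold enrichment of 3.47. Gbp3 and Gbp7, which lie between Gbp5 and Gbp2 on chromosome 3, had no peak in any list.

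The Gbp4 and Gbp5 start sites are shown because they were the strongest of the sites within 1 kb of a start whose sequence lies outside transcribed untranslated regions. Capitals mark a match to GAAANNGAA on the opposite strand at Gbp4 (mm10, chr5:105139715-105139902, plus strand) and to GAGGAAGT, the core bound by the myeloid factor PU.1, at Gbp5 (mm10, chr3:142493793-142493977, plus strand).
Gbp4, start site: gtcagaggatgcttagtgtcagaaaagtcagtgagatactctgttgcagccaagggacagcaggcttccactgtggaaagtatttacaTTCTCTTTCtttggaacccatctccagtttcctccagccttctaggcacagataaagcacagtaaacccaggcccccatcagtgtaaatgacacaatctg
Gbp5, start site: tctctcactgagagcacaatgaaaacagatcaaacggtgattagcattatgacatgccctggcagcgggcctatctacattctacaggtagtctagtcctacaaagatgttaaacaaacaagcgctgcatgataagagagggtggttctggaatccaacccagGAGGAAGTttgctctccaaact

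The MX genes, of a GTPase family known for blocking the replication of RNA viruses, held the largest fold of the 44 sites. Whether these C57BL/6 J cells make working MX proteins was not examined. Mx2 had 46.3 tags (34.7 to 60.6) with MS-275 over a vehicle level of 5.84 at a site 5306 bases upstream of its start, a fold enrichment of 6.92, at a −log10 p of 25.9. Mx2 is annotated as a polymorphic pseudogene in GENCODE M21 and was kept in the background set together with the protein-coding genes. Mx1 had sites 6.30 kb upstream (2.16) and 15.8 kb upstream in an intron of Fam3b, the latter with 42.0 tags (30.9 to 55.6) over 10.0 and a fold enrichment of 3.91. At the Mx2 site 62.2% of the bases within 100 bases of the summit were repeat-masked. They include a simple tandem run of 14 AAAGG units, and how uniquely reads map there was not tested.

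Of the 5 other interferon-stimulated genes, Isg20, Isg15 and Bst2 had gained sites. Isg20, an RNA exonuclease, was near the site with the highest −log10 p of the 44, 33.6, where MS-275 gave 93.6 tags (76.7 to 113) over 19.2, a fold enrichment of 4.68. That summit lay 9.91 kb upstream of Isg20 and 940 bases past an annotated start of Aen, another exonuclease gene. The neighboring summits gave 2.59 and 2.48. Isg15, a ubiquitin-like modifier, had a pair of summits 2161 and 2495 bases upstream, with 61.2 tags (47.7 to 77.3) over 17.0 and 56.0 tags (43.1 to 71.5) over 17.4, and fold enrichments of 3.46 and 3.10. They also lay 325 bases before and 9 bases after the start of AW011738, so that Isg15 was not the nearest gene. Bst2, which tethers budding virions to the cell, had a site 8.93 kb downstream of its start with 26.2 tags (17.7 to 37.4) over 11.6 and a fold enrichment of 2.16, near Ccdc194 and 88.6% repeat-masked. Usp18, which removes ISG15 and dampens receptor signaling, had no peak in any list, and Rsad2 had one only in the direct comparison of the inhibitors.
Isg20, 9.91 kb upstream (mm10, chr7:78903419-78903619, plus strand), shown as the site with the highest −log10 p: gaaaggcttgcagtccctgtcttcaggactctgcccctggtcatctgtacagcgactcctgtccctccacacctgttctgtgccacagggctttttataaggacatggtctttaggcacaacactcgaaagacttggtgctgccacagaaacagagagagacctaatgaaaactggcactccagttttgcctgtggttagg

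The OAS enzymes make 2'-5' oligoadenylates that activate RNase L, and the IFIT proteins bind viral RNA; both are among the most commonly used interferon signature genes. Oas1a had 1 weak site, with 21 tags (13.4 to 31.2) over 5.84 and a fold enrichment of 3.21, which lay 18.7 kb downstream of its start and 1209 bases upstream of the start of its neighbor Oas1g. Oas2, Oas3, Oasl1, Oasl2, Ifit1, Ifit2 and Ifit3 had no peak in any list. In all, 26 of the 46 genes had a peak in at least 1 list and 20 had none.

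**Figure D3:**
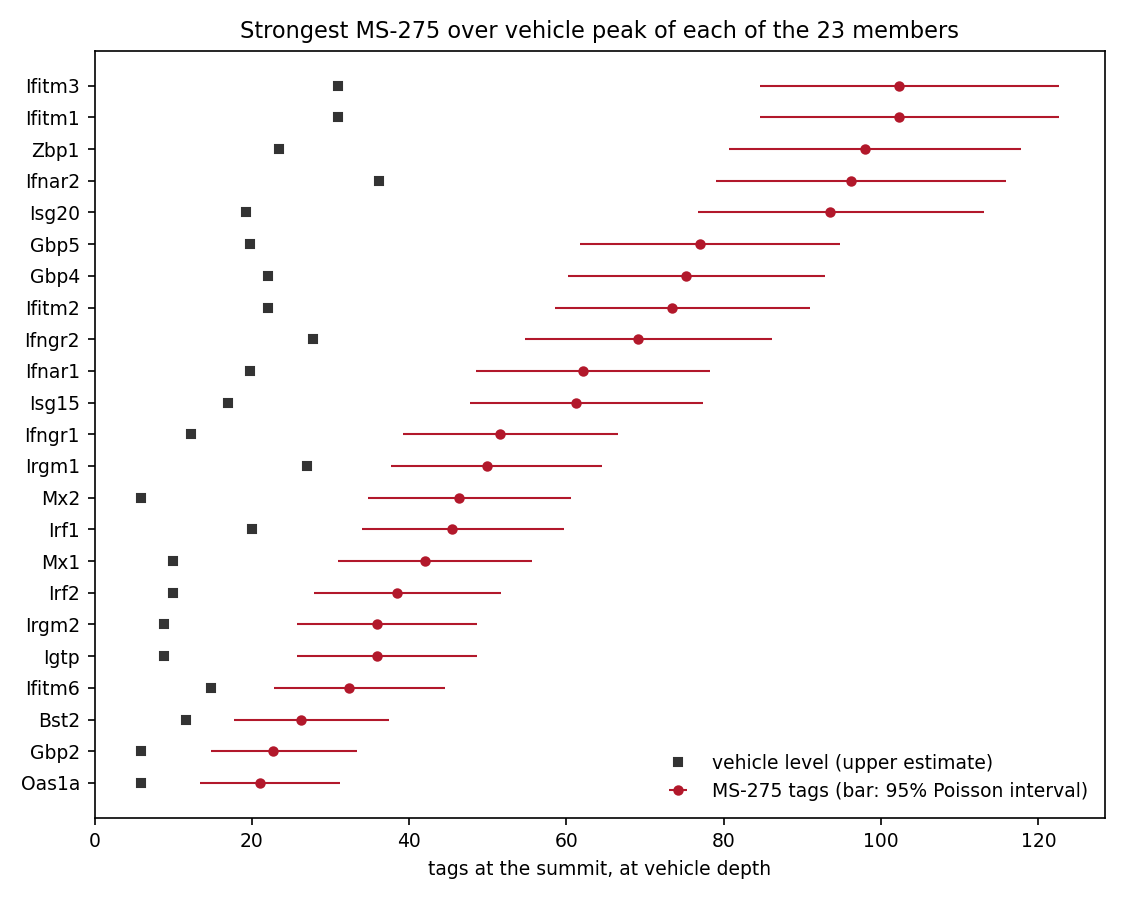
Tags at the summit of the MS-275 over vehicle peak with the highest −log10 p, for each of the 23 genes that had one; red points are MS-275 tags scaled to vehicle depth with exact 95% Poisson intervals, and black squares the vehicle level, an upper estimate. Genes that share a site appear with the same values (Ifitm1 and Ifitm3, Irgm2 and Igtp). Every interval lies above its vehicle square, from Oas1a at 21 over 5.84 to Ifitm3 at 102 over 31.0, as the choice of sites by the peak caller requires.

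Most sites lay away from the genes. Of the 44 MS-275 over vehicle sites, 4 had their summit inside one of the 46 genes, 6 in the 5 kb upstream, 17 farther upstream and 17 downstream, and 31 were intergenic by the annotation. The nearest protein-coding start belonged to one of the 46 genes at 31 of the 44. Counted as the study defined promoters, by a peak in the 5 kb upstream of a start, 7 genes had one (Ifngr2, Zbp1, Gbp4, Gbp5, Irgm1, Irgm2 and Isg15), or 15.2% against 5.9% of all protein-coding genes. For MS-275 over CXD101, 2 genes did, Ifngr2 and Rsad2, or 4.35% against 1.53%. A summit within 1 kb of a gene's start was found at Ifitm1, Irgm1, Gbp4 and Gbp5 in MS-275 over vehicle, and at Ifitm1 also in MS-275 over CXD101.

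**Figure D4:**
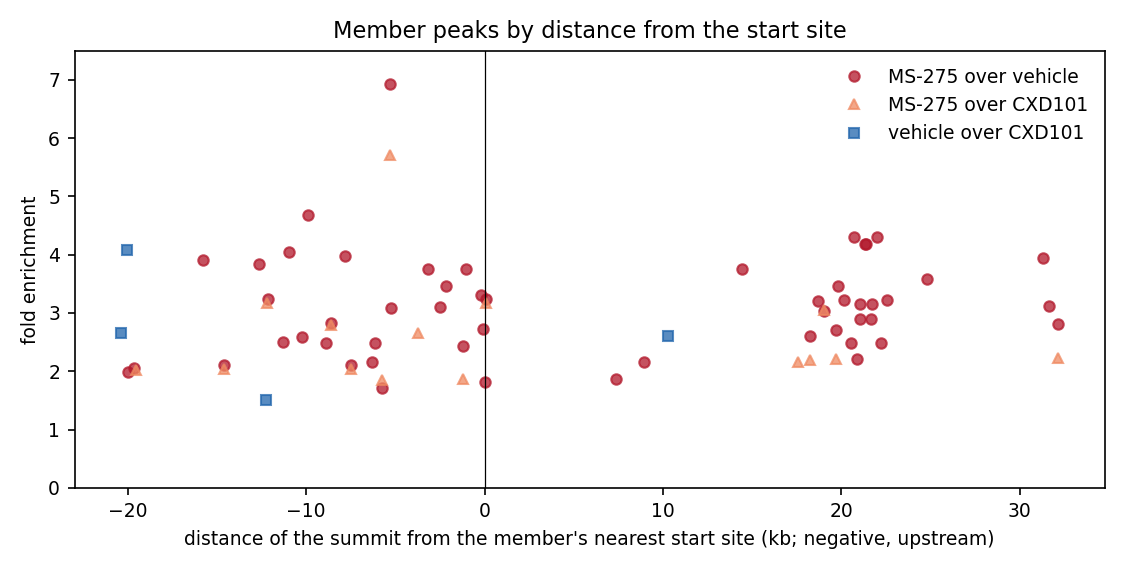
Fold enrichment (vertical axis) against the distance in kb of the summit from the nearest start site of the gene it was assigned to (horizontal axis; negative is upstream); a point is a pair of a gene and a site, so shared sites appear more than a single time. Red circles are MS-275 over vehicle, orange triangles MS-275 over CXD101 and blue squares vehicle over CXD101. The highest points are the Mx2 site, at 6.92 and 5.71, and points lie on both sides of the start.

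Recognition motifs were searched on both strands within 100 bases of each summit. GAAANNGAA, an interferon-stimulated response element core, was present at 4 of the 44 sites, 9.09% (Wilson 95% interval 3.59 to 21.2), and at 6.33% of all MS-275 over vehicle peaks. The sites with it lay near Gbp2, Gbp4 and between Ifitm1 and Ifitm3. TTCNNNGAA was present at 6 of 44 (13.6%) and 6.27% of the list, near Gbp2, Ifitm1, Ifitm3, Ifngr2 and Isg20. The AP-1 motif, TGACTCA or its reverse complement TGAGTCA, was present at 3 of 44 (6.82%) and 2.79%, the PU.1 core GAGGAAGT at 2 of 44 (4.55%) and 1.83%, and the C/EBP palindrome TTGCGCAA at 0 of 44 and 0.0825%. With 44 sites, the interval of the response element share includes that of the whole list. Repeat-masked sequence made up at least 50% of the bases around the summit at 8 of the 44 sites (18.2%) and at 8.64% of the list.

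The direct comparison of the inhibitors addressed whether the interferon genes differed between MS-275 and CXD101 given at the same dose. MS-275 over CXD101 held 13 sites near 10 genes: all 4 IFITM genes, the receptor chains Ifnar1, Ifnar2 and Ifngr2, Mx2, Zbp1 and Rsad2. The largest was again the Mx2 site, with a fold enrichment of 5.71, at a −log10 p of 24.2, followed by the Ifitm1 start site at 3.17 (19.3) and the Ifnar1 site at 3.06 (15.6). The bases around the summit were 58.7% repeat-masked at this Mx2 site and 85.1% at this Ifnar1 site. How uniquely reads map at these sites was not tested. Rsad2, which encodes the antiviral enzyme viperin, had 111 MS-275 tags (91.7 to 134) at CXD101 depth over a CXD101 level of 41.2, a fold enrichment of 2.66, at a site 3705 bases upstream of its start. A second Ifnar1 site, past the end of the gene and 17.6 kb downstream of its nearest annotated start, gave 2.16. Among the interferon genes of the main set, the GBP, IRG, OAS and IFIT genes and the transcription factors had no site in this list. Outside that set, Gbp8 and Gbp9, which belong to the further pathway genes described below, were counted through a single shared site with a fold enrichment of 2.68.

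At 11 of the 13 sites the MS-275 over vehicle list had a summit within 80 bases, so that all 3 groups could be read side by side. The lists share the MS-275 libraries, and at 7 of the 11 the MS-275 tag count was the same in both, so the pair of lists gives no independent measurement of MS-275. At vehicle depth, the median over the 11 sites was 64.7 tags for MS-275, a level of 22.4 for vehicle and a level of 25.9 for CXD101. At the Mx2 site MS-275 had 46.3 tags (34.7 to 60.6), vehicle 5.84 and CXD101 7.39. At the Ifitm1 start the values were 73.4 (58.6 to 90.9), 22.0 and 22.9. At the Ifngr2 promoter site they were 69.1 (54.7 to 86.1), 27.8 and 36.9. The CXD101 level was above that of vehicle at 9 of the 11 sites and below it at 2, near Ifnar2 and Ifnar1, and none of these sites entered a list that compares CXD101 with vehicle. Both levels are upper estimates, so their difference was not tested.

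**Figure D5:**
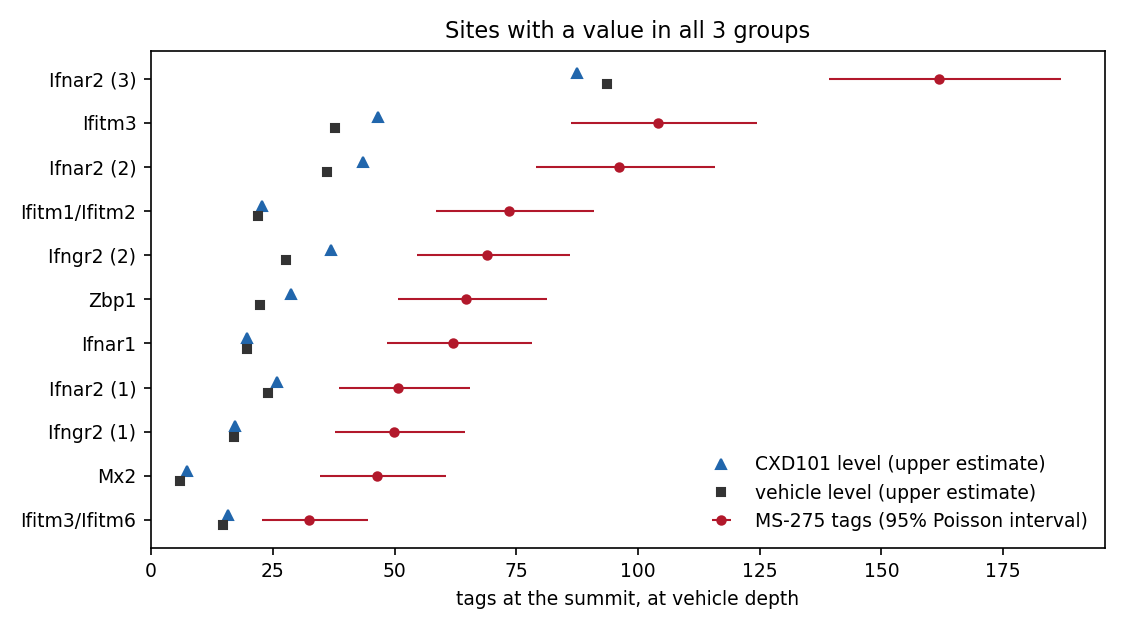
Tags at the summit, at vehicle depth, for the 11 sites near the interferon genes that had a value in all 3 groups; red points are MS-275 tags with exact 95% Poisson intervals, blue triangles the CXD101 level and black squares the vehicle level, both upper estimates. The triangles and squares lie near each other, with medians of 25.9 and 22.4, and the MS-275 points lie to their right at every site, as the choice of sites requires.

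A further 69 genes of the pathway were examined as a fixed list. MS-275 over vehicle had sites near 18 of them (26.1%, against 18.6% of protein-coding genes and 50% of the 46), and 8 had one in the 5 kb upstream, where the background was 5.9%: Il10rb, Ifi47, Oas1g, Tgtp1, Gbp6, Gbp8, Gbp9 and Ddx60. The Gbp8 and Gbp9 values (3.31) came from the Gbp4 start site and the Il10rb value (2.61) and Oas1g value (3.21) from the sites already given for Ifnar2 and Oas1a. Among genes not shared in this way, the RNA helicase gene Ddx60 had 8 sites with 3.90 at the strongest, Nmi had a site at 4.21, Socs1, a feedback inhibitor of cytokine receptors, one at 3.31, and the chemokine genes Cxcl9 and Cxcl10 sites at 3.13 and 2.40. Lost sites lay near 4 of the 69 in vehicle over MS-275 (5.8%, against 2.89%: Jak2, Socs3, Ikbke and Ifitm10) and near 6 in vehicle over CXD101 (8.70%, against 3.61%: Jak2, Socs3, Il10rb, Ikbke, Ifi35 and Rtp4). The Il10rb loss, at 2.60, was the intronic Ifnar2 site. CXD101 over vehicle gave 1 (1.45%, against 0.963%), Ddx60, at 3.74, MS-275 over CXD101 gave 11 (15.9%, against 6.61%), and CXD101 over MS-275 gave 0. In MS-275 over CXD101, Il10rb (2.19) and Cmpk2 (2.66) were counted through sites also counted for Ifnar2 and Rsad2. Gbp8 and Gbp9 shared a single site there, so the 11 genes are not all separate from the 46.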

How the data were processed

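ATAC-seq libraries of sorted M-MDSCs (2 per group) were mapped to mm10 with Bowtie2 by the authors, who pooled each group and compared groups with MACS2 2.2.7.1 without a model and with a shift of 0. The methods name a p threshold, whereas the lowest −log10 q-value of each list lay near 1.30, so the lists follow a q threshold. The deposited lists give, for each peak, the interval, the fold enrichment as a ratio, the −log10 p and −log10 q, and a score derived from q. The total depth of each library is not analysed here.

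Tags and control levels were solved from the deposited fold enrichment and −log10 p under the Poisson model of MACS2 (fold as the ratio of values plus 1), which gave a solution for all 11800 peaks, with 2 solutions at 12, none of them printed. The solver was tested on simulated data. Positions and start sites came from GENCODE M21, and sequence and repeat masking from the RefSeq copy of mm10 (lower case in that file). Windows were the gene and 20 kb either side, promoters 5 kb upstream, and the background 22020 protein-coding genes. No test was run, since each list holds 1 value per pooled group. The genes, lists and rules were chosen with earlier results of these data known. Every gene was accounted for; those with a summit in the gene or the 5 kb upstream were described with these sites, others with their site of highest −log10 p. Windows of other sizes, stricter q and fold thresholds, summit overlap and another gene set were tried as alternatives. Python 3.11.15, pandas 2.3.3, numpy 2.4.6 and scipy 1.17.1 were used. Some items are not reported here.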

Additional observations from a re-analysis of the deposited data

Results flagged for a closer look

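The inhibitors differed at the interferon genes in the authors' direct comparison. MS-275 over CXD101 held 13 distinct sites near 10 of the 46 genes (21.7%, against 6.61% of protein-coding genes). No site had less signal in MS-275, but CXD101 over MS-275 held only 2 peaks in all (0.0136% of protein-coding genes), so this is not particular to the interferon genes. The fold enrichment of MS-275 over CXD101 was 5.71 at the Mx2 site, 3.17 at the Ifitm1 start and 2.66 at the Rsad2 site. At the Mx2 site 58.7% of the bases around the summit were repeat-masked, and how uniquely reads map there was not tested. Each rests on the Poisson test of the peak caller between 2 pools, with no spread between mice.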

How the results depend on the processing

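Of 107 recomputed values, 80 kept their size and 27 moved, nearly all with the window or the background set. Many of the 80 were counts of 0 that stayed at 0. Stricter thresholds, narrower windows and summit overlap cannot raise a count of 0, so the tally does not measure how stable the results are. For MS-275 over vehicle, the number of interferon genes with a site was 5 in gene bodies, 12 within 5 kb, 7 in the 5 kb upstream and 15 by nearest start site (added after seeing the data), and the number of sites was 14 within 5 kb and 68 within 50 kb. For MS-275 over CXD101 the genes numbered 1 in gene bodies, 4 within 5 kb and 2 in the 5 kb upstream, and the sites 4 within 5 kb and 20 within 50 kb. For vehicle over CXD101 the genes numbered 1 in gene bodies, 1 within 5 kb, 0 in the 5 kb upstream and 1 by nearest start site, and the sites 1 within 5 kb, 2 by summit overlap and 2 by nearest start site. Within 50 kb, vehicle over MS-275 gave 1 gene and 2 sites, and CXD101 over vehicle 1 gene and 1 site. The matching share of protein-coding genes in the 5 kb upstream was 5.9% for MS-275 over vehicle and 1.53% for MS-275 over CXD101. By nearest start site it was 12.9% for MS-275 over vehicle. For the other counts at changed windows no such share was computed, so they cannot show whether the genes exceed the background there. With all annotated genes as background, the shares were 13.3% for MS-275 over vehicle, 1.90% for vehicle over MS-275, 0.693% for CXD101 over vehicle, 2.27% for vehicle over CXD101 and 4.58% for MS-275 over CXD101. Stricter q and fold thresholds left the counts within 1.5 times the reported ones. No paired analysis was possible because peak calling used pools of both libraries of a group, and for the same reason no library could be left out. Sites with vehicle levels near 5.84 tags rest on few reads.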
